A study of Mus musculus with 28 samples.

Results

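The Myc and Max network genes are 10 of the 24421 gene symbols counted in mouse thymocytes by RNA sequencing: Myc, Mycn, Mycl, Max, Mxd1, Mxd3, Mxd4, Mxi1, Mnt and Mga. They were taken by symbol alone, and each had enough counts to be among the 14371 genes tested. There were 3 genotypes. Ldb1-KO mice, which the labels call Lmo2tg; Ldb1-KO, carried an Lmo2 transgene and a deletion of Ldb1. Lmo2tg mice carried the transgene without that deletion, so both of these groups share the transgene. Wild-type mice carried neither. Lmo2 is a LIM-only adaptor protein and a T-cell leukemia oncogene, and Ldb1 is a cofactor that binds it. Each genotype was sorted as DN4 and as the earlier DN2/3, thymocyte stages without surface CD4 or CD8, with 5 Ldb1-KO, 5 Lmo2tg and 4 wild-type libraries per stage, 28 in all. The design text counts 4 Ldb1-KO replicates, but 5 are labelled, and all 5 were used. The protocol names floxed Ldb1, the Cre lines Lck-Cre, Rag1-Cre and IL-7Ra-Cre, a Rosa26 EYFP reporter and CD45.1 congenic mice. The Cre line of each library, the transgene's promoter and the mice's age are not given. As cell type the labels put CD4 T cells, although DN stands for double-negative. Whether replicates were separate animals is not labelled, so p-values measure only the spread between libraries, which may be technical.

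Myc, Mycn and Mycl are transcription factors that bind DNA at E-boxes as dimers with Max and raise the transcription of genes for ribosome synthesis, metabolism and the cell cycle. Max also pairs with Mxd1, Mxd3, Mxd4, Mxi1 and Mnt, which bind the same E-boxes and recruit Sin3 and histone deacetylases, so that they oppose Myc. Mga joins Max to a variant Polycomb complex through its own helix-loop-helix domain. In developing thymocytes Myc is needed for the growth and division that follow the pre-T-cell receptor signal, when DN3 cells become DN4 cells. In bulk RNA a smaller number of cells that express a gene and less of its RNA per cell cannot be told apart.

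Promoter windows from the RefSeq tables of GRCm38.p6, 250 bases before to 50 bases after the start, were found for 9 of the 10 members (11 windows, of which 3 belong to Mxi1). None was found for Myc, so its promoter was not searched. Distances are from the starts in those tables. The gene positions given further below come from another annotation. Its gene ends for Mycn (12941914), Max (76962201), Mxd1 (86669161), Mxd3 (55329823) and Mxd4 (34187720), all on the minus strand, do not match those starts. Nor do its gene starts for Mycl (122995652), Mxi1 (53310518) and Mnt (74830920), on the plus strand. Mycn is shown because it had the largest fold change between stages of the members called. Its 250 bases before the start lie on the minus strand at chr12:12941837-12942086. The capitals mark TTTGGCGC, letters of the kind that E2F factors bind, which stand 183 and 168 bases before the start. This motif was searched only after the sequence had been seen.
Mycn: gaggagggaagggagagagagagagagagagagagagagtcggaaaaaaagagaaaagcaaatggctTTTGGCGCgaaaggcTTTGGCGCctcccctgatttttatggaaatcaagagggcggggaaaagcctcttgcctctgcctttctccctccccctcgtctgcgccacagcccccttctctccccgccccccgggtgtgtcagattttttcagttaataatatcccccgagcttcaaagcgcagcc
TTTGGCGC, searched on both strands, was in 0.514% of all 32851 promoter windows of this length and in no other member's window. The windows of Max, Mxd4 and Mnt held CACGTG, the E-box that Myc and Max bind, and 30 bases around it are shown with the E-box in capitals. They lie at chr12:76962234-76962263 on the minus strand (Max, 3 bases before the start), chr5:34187912-34187941 on the minus strand (Mxd4, 219 bases before) and chr11:74830789-74830818 on the plus strand (Mnt, 123 bases before).
Max: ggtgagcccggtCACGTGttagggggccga
Mxd4: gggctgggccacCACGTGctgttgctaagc
Mnt: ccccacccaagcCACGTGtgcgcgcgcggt
CACGTG was in 7.15% of all promoter windows. The E-box CAGCTG, in 16.3% of all windows, was in that of Mga. CAGGTG, in 20.2%, was in that of Mycl. Of the members' windows, none held AGATAA, letters that GATA factors bind (11.2% of all windows), or CGTGGGAA, a motif of the Notch partner Rbpj (0.734%). All were searched on both strands, and no matches overlapped in the members' windows. Such matches are a description of the letters, and no binding was measured.

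Total counts ran from 28.1 to 106.9 M per library. Lmo2 was at 45.4 ± 6.66 CPM (counts per M counts of the scaled library, SD) in Ldb1-KO, 45.1 ± 13.5 in Lmo2tg and 0.0778 ± 0.0708 in wild type at DN4, as labelled. Ldb1 was lowered, not lost, in the libraries labelled Ldb1-KO: it had 6.11 to 54.7 CPM there at DN4, against 345 ± 72.2 CPM in Lmo2tg libraries, and 57.1 to 120 CPM at DN2/3, against 397 ± 58.0 CPM in Lmo2tg. Markers shared by thymocytes summed to 5920 to 8160 CPM in all libraries. Summed markers of double-positive and later T cells, 8 genes, were at 501 to 1760 CPM in Ldb1-KO, 555 to 2280 CPM in Lmo2tg and 184 to 284 CPM in wild type at DN4. At DN2/3 they were at 171 to 244, 155 to 335 and 31.6 to 53.2 CPM in the same order. Summed B-cell markers at DN4 had 11.6 to 91.2 CPM in Lmo2tg and 10.8 to 13.9 CPM in wild type, with the defining marker Pax5 at 0 in each wild-type library. At DN2/3 the B-cell sums went the other way, with 12.8 to 26.5 CPM in Lmo2tg and 39.9 to 42.6 CPM in wild type. In Lmo2tg against wild type at DN4, 7 of the 8 double-positive markers and 6 of 6 B-cell markers were called higher, beside 28.9% of all genes. Dendritic markers at DN4 summed to 10.4 to 146 CPM in Lmo2tg and 7.84 to 20.6 CPM in wild type. Thymic stroma markers summed to 57.7 to 252 CPM in Lmo2tg and 30.2 to 45.3 CPM in wild type there. At DN2/3 the dendritic sums were 3.36 to 14.2 and 8.55 to 19.7 CPM in the same order, and the stroma sums 139 to 317 and 132 to 155 CPM. NK markers at DN4 had 180 to 365 CPM in Ldb1-KO, 231 to 472 CPM in Lmo2tg and 367 to 514 CPM in wild type. Gamma-delta T markers at DN2/3 had 127 to 236 CPM in Lmo2tg and 70.4 to 84.8 CPM in wild type. Lmo2tg DN4 replicate 1 stood apart, with the highest sums of double-positive (2280 CPM), B-cell (91.2 CPM) and dendritic (146 CPM) markers. The part of these markers in the results was not tested. Wild-type libraries were named in a series of their own, so library series and the contrasts with wild type cannot be told apart.

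Per kb of gene model, Myc was the most abundant member in each of the 6 groups. Among levels in CPM per kb in Lmo2tg DN4, Myc was at 80.8, Max at 30.5, Mga at 15.6, Mxd3 just below it, Mnt at 12.7, Mxi1 at 6.74, Mxd4 at 4.62, Mxd1 at 4.05, Mycn at 2.13 and Mycl at 0.0805. In wild type DN4, Myc was at 166, and Mxd3, at 32.7, was level with Max at 32.4. In wild type DN2/3, Myc was at 134, Max at 31.0 and Mxd3 at 9.77, and Mycn reached 5.91, next to Mxd4 at 5.81. Mycn was thus the least abundant member but Mycl in Lmo2tg DN4 and wild type DN4. In wild type DN2/3 it was level per kb with Mxd4 and above Mxd1 and Mycl. In CPM there, Mycn (19.5) was below Mxd4 (49.3) and Mxd1 (25.0). The lengths join all annotated exons of a gene. Whether the same annotation was used for the counts is not given, so ranks per kb depend on that choice.

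The contrast of Lmo2tg with wild type at DN4 called the most members. There, in Lmo2tg, 5 of 10 rose (Mycn, Mycl, Mxd1, Mxd4, Mga) and 3 fell (Myc, Mxd3, Mxi1) at an adjusted p below 0.05, while 28.9% of all genes tested were called higher and 23.5% lower. At DN2/3 the same contrast called only Mycn, which fell, beside 15.1% of all genes higher and 14.4% lower. Ldb1-KO differed from Lmo2tg at DN4 in a fall of Mycn alone (background 5.85% higher, 8.71% lower) and at DN2/3 in a rise of Mycn alone (8.87% higher, 7.22% lower). Against wild type at DN4, Ldb1-KO had 3 members higher (Mycn, Mxd1, Mxd4) and Myc lower, beside 18.2% and 14.4% of all genes. Ldb1-KO against wild type at DN2/3 called 0 members in edgeR, where 6.98% of all genes were higher and 2.58% lower. At an unadjusted p below 0.05 there were 3, and DESeq2 called 0. The contrasts with wild type share the wild-type libraries, and the contrast of Ldb1-KO with Lmo2tg shares libraries with both. The median log2 change over the 10 members was 0.219 for Lmo2tg against wild type at DN4, against 0.0674 over all genes, and between -0.195 and 0.0436 in the other 5 contrasts of genotype.

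Between stages, DN4 against DN2/3, wild type had 2 members higher (Mxd3, Mxi1) and 4 lower (Mycn, Mxd1, Mxd4, Mga), beside 21.1% of all genes higher and 24.8% lower. Ldb1-KO had Mxd3 higher and Mycn and Mga lower (12.3% and 15.8% of all genes). Lmo2tg had Mycn lower alone (8.32% and 7.04%). With the replicate block within genotype, which pairs the stages by replicate number, Myc and Mnt were lower too (3 called). That block called 2674 of all 14371 genes higher and 2895 lower in this contrast. The change of the Lmo2tg effect between stages passed its own test for 5 members: higher at DN4 than at DN2/3 for Mycn, Mxd1 and Mxd4 and lower for Myc and Mxd3, beside 14.7% and 11% of all genes. The change of the Ldb1-KO effect relative to Lmo2tg passed for Mycn alone, which was lower (0.132% of all genes higher, 1.22% lower). Relative to wild type, 0 members passed in edgeR (0.181% and 0.0348%), with 3 at an unadjusted p below 0.05. In DESeq2 1 passed, beside 280 of 14272 genes. With the replicate block within genotype that count was 3 (Mycn, Mxd1, Mxd4), beside 2811 of 14371 genes. In the compared groups only it was 4, Myc included, beside 1737 of 14051 genes.

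**Figure D1:**
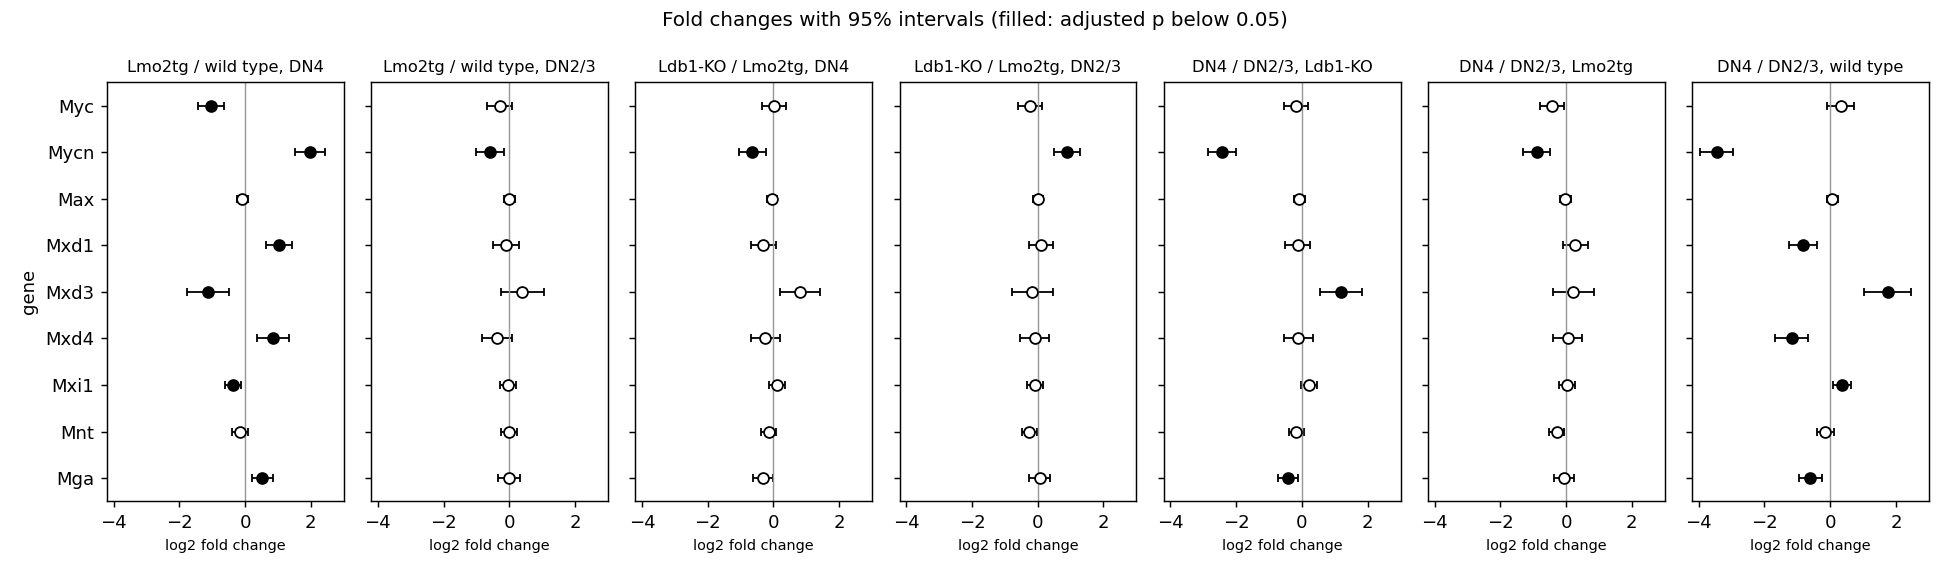
Log2 fold change of 9 members (rows, Mycl left out for its low counts) in 7 contrasts (panels), with 95% intervals from the edgeR model and filled points where the adjusted p was below 0.05. Mycn has a filled point in each of the 7 panels, while Max has none. The contrasts of Ldb1-KO with wild type are not shown, and at DN2/3 Mycn was not called there (log2 0.31, edgeR adjusted p = 0.361).

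Myc, on mm10 chromosome 15 from 61985391 to 61990374, fell at DN4 in both transgenic groups by about the same amount, and no difference between those 2 groups passed the test. At DN4, Myc had 219, 188, 225, 270 and 204 CPM in the Ldb1-KO libraries, 136, 252, 151, 367 and 191 CPM in Lmo2tg libraries, and 427, 402, 512 and 467 CPM in wild type. Every transgenic library was below every wild-type library, and the Lmo2tg libraries spread most, with replicate 4 close to the wild-type range. The log2 fold change of Lmo2tg against wild type was -1.04 (SE 0.19, adjusted p = 8.4e-05). It was -0.91 without the Lmo2tg replicate 1 that stood apart (adjusted p = 0.000247). For Ldb1-KO against wild type it was -1.03 (SE 0.19, adjusted p = 0.000399). Ldb1-KO against Lmo2tg gave 0.01, with a 95% interval of -0.35 to 0.38 (adjusted p = 0.980).

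At DN2/3, Myc had 235, 256, 239, 291 and 233 CPM in Ldb1-KO, 283, 299, 301, 341 and 258 CPM in Lmo2tg libraries, and 425, 308, 364 and 358 CPM in wild type. The Ldb1-KO libraries were all below wild type, and the Lmo2tg libraries overlapped it. Neither Lmo2tg (log2 -0.29, SE 0.19, adjusted p = 0.257) nor Ldb1-KO (log2 -0.54, SE 0.19, adjusted p = 0.0710) passed the test against wild type. The value for Ldb1-KO did pass with scaling by library totals only (adjusted p = 0.0371) and in a fit of the compared groups only (0.00502).

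The Lmo2tg effect on Myc was lower at DN4 than at DN2/3 (log2 difference -0.75, SE 0.27, adjusted p = 0.0414). This call was lost with library totals only (adjusted p = 0.0536), in the compared groups only (0.0833) and when any of 11 libraries was left out (0.0541 to 0.0917): replicates 2, 3 and 4 of wild type DN2/3, 3 and 4 of wild type DN4, 2, 3 and 4 of Lmo2tg DN2/3, or 1, 3 and 5 of Lmo2tg DN4. Between stages, Myc in Lmo2tg had a log2 fold change of -0.43 for DN4 against DN2/3 (SE 0.18, adjusted p = 0.101). With the replicate block within genotype it fell, at -0.52 (adjusted p = 0.00587). It also fell without Lmo2tg DN4 replicate 4 (log2 -0.70, adjusted p = 0.000956). In the order of mean levels, wild type DN4 (452 ± 48.5 CPM), wild type DN2/3 (364 ± 47.8), Lmo2tg DN2/3 (296 ± 30.5), Ldb1-KO DN2/3 (251 ± 24.5), Ldb1-KO DN4 (221 ± 30.8) and Lmo2tg DN4 (220 ± 94.0), no neighbouring pair passed the test. The first of these pairs, DN4 against DN2/3 in wild type (log2 0.31, adjusted p = 0.202), did pass in the compared groups only (log2 0.35, adjusted p = 0.0133).

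**Figure D2:**
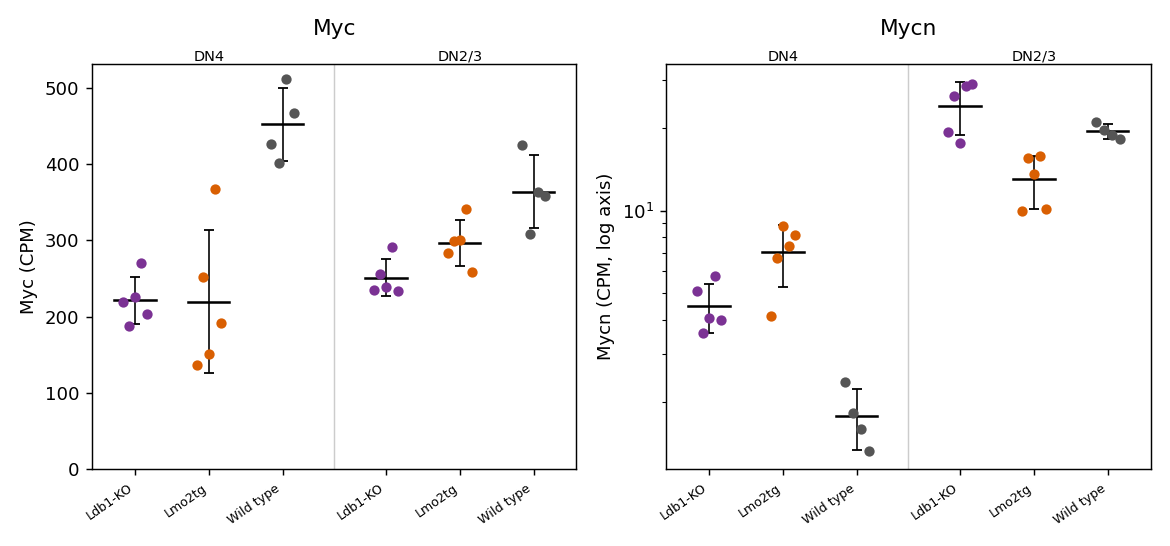
Myc (linear axis) and Mycn (log axis) in CPM, by group, with Ldb1-KO, Lmo2tg and wild type from left to right at DN4 and then at DN2/3. Points are libraries, bars the mean and error bars the SD. At DN4 the wild-type libraries are highest for Myc (402 to 512 CPM) and lowest for Mycn (1.33 to 2.37 CPM).

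Mycn, on chromosome 12 from 12936093 to 12941914, is the paralogue that many progenitor cells use. It went the other way at DN4: both transgenic groups had more of it than wild type, with the mean of Ldb1-KO between the other 2. Mycn had 5.09, 3.56, 4.06, 5.78 and 3.99 CPM in Ldb1-KO, 4.13, 6.74, 8.77, 7.4 and 8.11 CPM in Lmo2tg libraries, and 2.37, 1.83, 1.6 and 1.33 CPM in wild type. No transgenic library reached down to wild type, while Lmo2tg replicate 1 lay within the Ldb1-KO range. Mycn rose in Lmo2tg over wild type (log2 1.98, SE 0.22, adjusted p = 2.07e-07) and in Ldb1-KO over wild type (log2 1.33, SE 0.22, adjusted p = 0.000144). It fell in Ldb1-KO relative to Lmo2tg (log2 -0.65, SE 0.20, adjusted p = 0.0300). That call was lost in the compared groups only (adjusted p = 0.160) and without Lmo2tg DN4 replicate 3 (0.0799) or 5 (0.0714) or Ldb1-KO DN4 replicate 2 (0.0892), 3 (0.0667) or 5 (0.0847).

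At DN2/3 the order of the groups was different. Mycn had 19.4, 26.1, 17.6, 28.4 and 29 CPM in Ldb1-KO, 9.93, 15.6, 13.6, 15.8 and 10.1 CPM in Lmo2tg libraries, and 21.1, 19.7, 18.8 and 18.3 CPM in wild type. The Lmo2tg libraries were all below those of the other 2 groups, which overlapped. Mycn was higher in Ldb1-KO than in Lmo2tg (log2 0.89, SE 0.20, adjusted p = 0.00202) and did not pass between Ldb1-KO and wild type (log2 0.31, adjusted p = 0.361). It fell in Lmo2tg relative to wild type (log2 -0.58, SE 0.21, adjusted p = 0.0339). Leaving out Lmo2tg DN2/3 replicate 1 (0.0851) or 5 (0.0824), or replicate 1 (0.0838), 2 (0.0665) or 3 (0.0558) of the wild-type group, ended this call. Markers of stages and other cells also differed between the groups. At DN2/3, 7 markers of the DN2/3 stage summed to 2880 to 4280 CPM in Ldb1-KO, 2590 to 3450 CPM in Lmo2tg and 4650 to 4790 CPM in wild type. In Lmo2tg against wild type 4 of 7 were called lower and 1 higher, beside 14.4% and 15.1% of all genes. In Ldb1-KO against Lmo2tg 4 of 7 were higher, beside 8.87%. At DN4 they summed to 1090 to 1600 CPM in Ldb1-KO, 1510 to 1900 CPM in Lmo2tg and 1620 to 1750 CPM in wild type. Wild type had the least Mycn at that stage. The 7 myeloid markers, most of all Lyz2, summed to 20 to 30.9 CPM in Ldb1-KO, 3.68 to 10.5 CPM in Lmo2tg and 17.3 to 24.2 CPM in wild type at DN2/3. At DN4 they summed to 1.34 to 2.5 CPM in Ldb1-KO, 1.53 to 9.57 CPM in Lmo2tg and 0.349 to 0.431 CPM in wild type, with Elane at 0 in all libraries of that stage. The part of these markers in the levels of Mycn was not tested.

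Mycn was lower at DN4 than at DN2/3 in each genotype. The log2 fold change of the stage was -2.42 in Ldb1-KO (SE 0.21, adjusted p = 9.88e-09), -0.89 in Lmo2tg (SE 0.20, adjusted p = 0.003) and -3.45 in wild type (SE 0.24, adjusted p = 3.72e-10). In the compared groups only, the fall in Lmo2tg was not called (adjusted p = 0.0720). The Lmo2tg effect changed direction between stages, with a log2 difference of 2.56 (SE 0.30, adjusted p = 1.49e-05). The Ldb1-KO effect relative to Lmo2tg changed in the opposite sense, by -1.54 (SE 0.28, adjusted p = 0.00339). Relative to wild type, the Ldb1-KO effect changed by 1.02 (adjusted p = 0.129). It was called with DESeq2 (0.0473), in the compared groups only (0.0173) and with the replicate block within genotype (log2 difference 1.06, adjusted p = 0.00821). In the order of levels, Ldb1-KO DN2/3 (24.1 ± 5.26 CPM) and wild type DN2/3 (19.5 ± 1.23) were not told apart, and each later neighbour differed: Lmo2tg DN2/3 (13.0 ± 2.85), Lmo2tg DN4 (7.03 ± 1.79), Ldb1-KO DN4 (4.49 ± 0.913) and wild type DN4 (1.78 ± 0.443).

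Mycl, the third paralogue, was near the limit of detection. Its counts summed over a group's libraries were 24 in Ldb1-KO, 78 in Lmo2tg and 14 in wild type at DN4, and 24, 37 and 16 at DN2/3 in the same order. Single Lmo2tg DN4 libraries had 0.386, 0.279, 0, 0.718 and 0.243 CPM, against 0, 0, 0.127 and 0.0761 CPM in wild type DN4. The groups overlapped at 0. Mycl was called higher in Lmo2tg than in wild type at DN4 (adjusted p = 0.0308), but not without the filter on low counts (0.0504), in the compared groups only (0.0900), or without wild type DN4 replicate 1 (0.0871) or 2 (0.0858) or Lmo2tg DN4 replicate 4 (0.0749). No library held more than 0.718 CPM of Mycl.

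Max, the shared dimer partner on chromosome 12 from 76937269 to 76962201, had a narrow range. At DN4, libraries ran from 97.5 to 113 CPM in Ldb1-KO, 99.8 to 128 CPM in Lmo2tg and 111 to 125 CPM in wild type. At DN2/3 they ran from 105 to 122, 103 to 127 and 104 to 121 CPM in the same order. All groups overlapped, and Max passed the test in no contrast. The log2 fold change of Lmo2tg against wild type at DN4 was -0.09 (SE 0.08, adjusted p = 0.379).

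Mxd3, on chromosome 13 from 55325168 to 55329823, is the Mxd member known from dividing cells. It fell in Lmo2tg at DN4, and in wild type and Ldb1-KO it was higher at DN4 than at DN2/3. At DN4 it had 66.3, 50.5, 51.8, 76.5 and 65.2 CPM in Ldb1-KO, 17.7, 30.4, 16.3, 68.7 and 44 CPM in Lmo2tg libraries, and 86.3, 66.4, 88.1 and 69.1 CPM in wild type. Lmo2tg replicate 4 lay inside the wild-type range and the other 4 Lmo2tg libraries below it and below all Ldb1-KO libraries. Lmo2tg against wild type gave a log2 fold change of -1.13 (SE 0.32, adjusted p = 0.00451). Ldb1-KO against Lmo2tg gave 0.81 (SE 0.30, adjusted p = 0.0722). Mxd3 was called higher in Ldb1-KO with library totals only (adjusted p = 0.0477), with DESeq2 (0.0432) and without Lmo2tg DN4 replicate 4 (log2 1.20, adjusted p = 0.00374). About 4.43% of its exon bases overlap exons of Prelid1 on the other strand, and whether the counting used strand is not given.

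At DN2/3, Mxd3 had 20.9, 25.5, 28.9, 36.5 and 24.2 CPM in Ldb1-KO, 13.5, 34.3, 25.8, 46.7 and 31.9 CPM in Lmo2tg libraries, and 29.3, 19.8, 21.9 and 21.6 CPM in wild type. These overlapped, and no contrast of genotype passed. Mxd3 was higher at DN4 than at DN2/3 in Ldb1-KO (log2 1.19, SE 0.30, adjusted p = 0.0046) and in wild type (log2 1.74, SE 0.34, adjusted p = 0.000244), while Lmo2tg gave 0.22 (adjusted p = 0.669). The Lmo2tg effect differed between stages by -1.52 (SE 0.45, adjusted p = 0.018, and 0.0505 in the compared groups only). The Ldb1-KO effect relative to Lmo2tg differed by 0.97 (adjusted p = 0.357). That difference was called without Lmo2tg DN4 replicate 4 (0.0407) and, at 1.08, with the replicate block within genotype (adjusted p = 0.00552).

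Within Lmo2tg DN4, Mxd3, Myc and proliferation genes all differed between libraries. The summed level of 14 such genes was 2840, 6340, 4230, 7510 and 4630 CPM in replicates 1 to 5. Replicate 4, with the highest sum, was highest for both members, and replicates 1 and 3, with the lowest sums, were lowest for both. Replicate 2, with the next highest sum, came next for Myc, but its Mxd3 (30.4 CPM) lay below that of replicate 5 (44 CPM). The sums ran from 7010 to 7880 CPM in Ldb1-KO DN4 and from 7840 to 8920 CPM in wild type DN4. At DN2/3 they ran from 3190 to 4650 CPM in Ldb1-KO, 2630 to 6280 CPM in Lmo2tg and 3180 to 3670 CPM in wild type. Across genotypes at DN4 the order was another: the sums of Ldb1-KO reached the lower end of those of wild type, with Myc inside the range of Lmo2tg. The part of proliferation in the falls of Mxd3 and Myc was not tested.

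**Figure D3:**
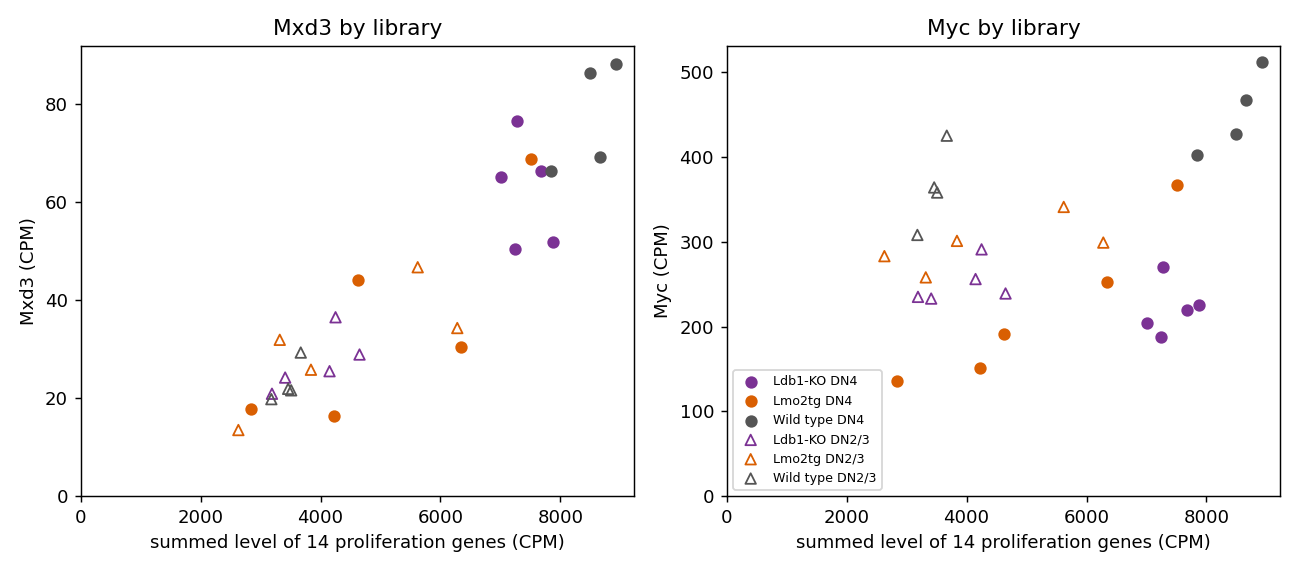
Mxd3 and Myc (CPM, vertical axes) against the summed level of 14 proliferation genes (CPM, horizontal axis), with 1 point for each of the 28 libraries. Ldb1-KO DN4 libraries, at 7010 to 7880 CPM of proliferation genes, have 188 to 270 CPM of Myc, below the 402 to 512 CPM of wild type DN4.

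Mxd1, on chromosome 6 from 86647042 to 86669161, and Mxd4, on chromosome 5 from 34173883 to 34187720, are linked to the exit of cells from division as they differentiate. Both were lowest in wild type DN4. At DN4, Mxd1 had 24.7, 22.6, 20, 27.1 and 21.1 CPM in Ldb1-KO, 37.5, 32.6, 24.2, 26.6 and 22.4 CPM in Lmo2tg libraries, and 13.6, 16.6, 11.3 and 14.6 CPM in wild type. All transgenic libraries were above all wild-type libraries. Mxd1 rose in Lmo2tg over wild type (log2 1.03, SE 0.20, adjusted p = 0.00016) and in Ldb1-KO over wild type (log2 0.72, SE 0.20, adjusted p = 0.00841), and Ldb1-KO against Lmo2tg gave -0.31 (adjusted p = 0.285).

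At DN2/3, Mxd1 averaged 25.2 ± 4.26 CPM in Ldb1-KO, 23.6 ± 8.34 in Lmo2tg and 25.0 ± 2.03 in wild type, with overlap between all groups. It fell at DN4 relative to DN2/3 in wild type alone among the stage contrasts (log2 -0.84, SE 0.21, adjusted p = 0.00182). The Lmo2tg effect was higher at DN4 than at DN2/3 (log2 difference 1.12, SE 0.27, adjusted p = 0.0065). The Ldb1-KO effect relative to wild type differed by 0.71 (adjusted p = 0.249). It was called in the compared groups only (0.0206) and, at 0.73, with the replicate block within genotype (adjusted p = 0.0277).

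Mxd4 at DN4 had 35.3, 38.1, 25.7, 29.9 and 36.2 CPM in Ldb1-KO, 59.7, 31, 36.3, 22.5 and 46.5 CPM in Lmo2tg libraries, and 23.2, 23.5, 17.5 and 23 CPM in wild type. Lmo2tg replicate 4, the library with the most proliferation gene RNA in its group, lay inside the wild-type range, and the Ldb1-KO libraries were all above it. Mxd4 rose in Lmo2tg over wild type (log2 0.85, SE 0.23, adjusted p = 0.00384). It rose in Ldb1-KO by 0.60 (SE 0.23, adjusted p = 0.0476), a call lost with another size factor, RLE (0.0535), without the count filter (0.0581), without any 1 of the 4 wild type DN4 libraries (0.0723 to 0.163) and without Ldb1-KO DN4 replicate 1 (0.0828), 2 (0.101) or 5 (0.0922).

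At DN2/3 wild type, which had the lowest mean of Mxd4 at DN4, had the highest. Mxd4 had 43.2, 30.1, 29.6, 36.4 and 38.8 CPM in Ldb1-KO, 47.7, 20.6, 38.3, 30.9 and 52.3 CPM in Lmo2tg libraries, and 53.1, 43.3, 47.6 and 53.2 CPM in wild type. The Ldb1-KO libraries were below the wild-type ones, though neither transgenic group passed against wild type (log2 -0.47, adjusted p = 0.195, and -0.38, adjusted p = 0.228, for Ldb1-KO and for Lmo2tg). In the compared groups only, the value for Ldb1-KO was called (0.0233). Mxd4 fell at DN4 relative to DN2/3 in wild type (log2 -1.18, SE 0.24, adjusted p = 0.000393). The Lmo2tg effect differed between stages by 1.22 (SE 0.32, adjusted p = 0.00992). The Ldb1-KO effect relative to wild type differed by 1.07 (adjusted p = 0.146). It was called in the compared groups only (0.00229) and, at 1.08, with the replicate block within genotype (adjusted p = 0.00233). An exon overlap of 6.06% with Gm42846 lies on the other strand.

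**Figure D4:**
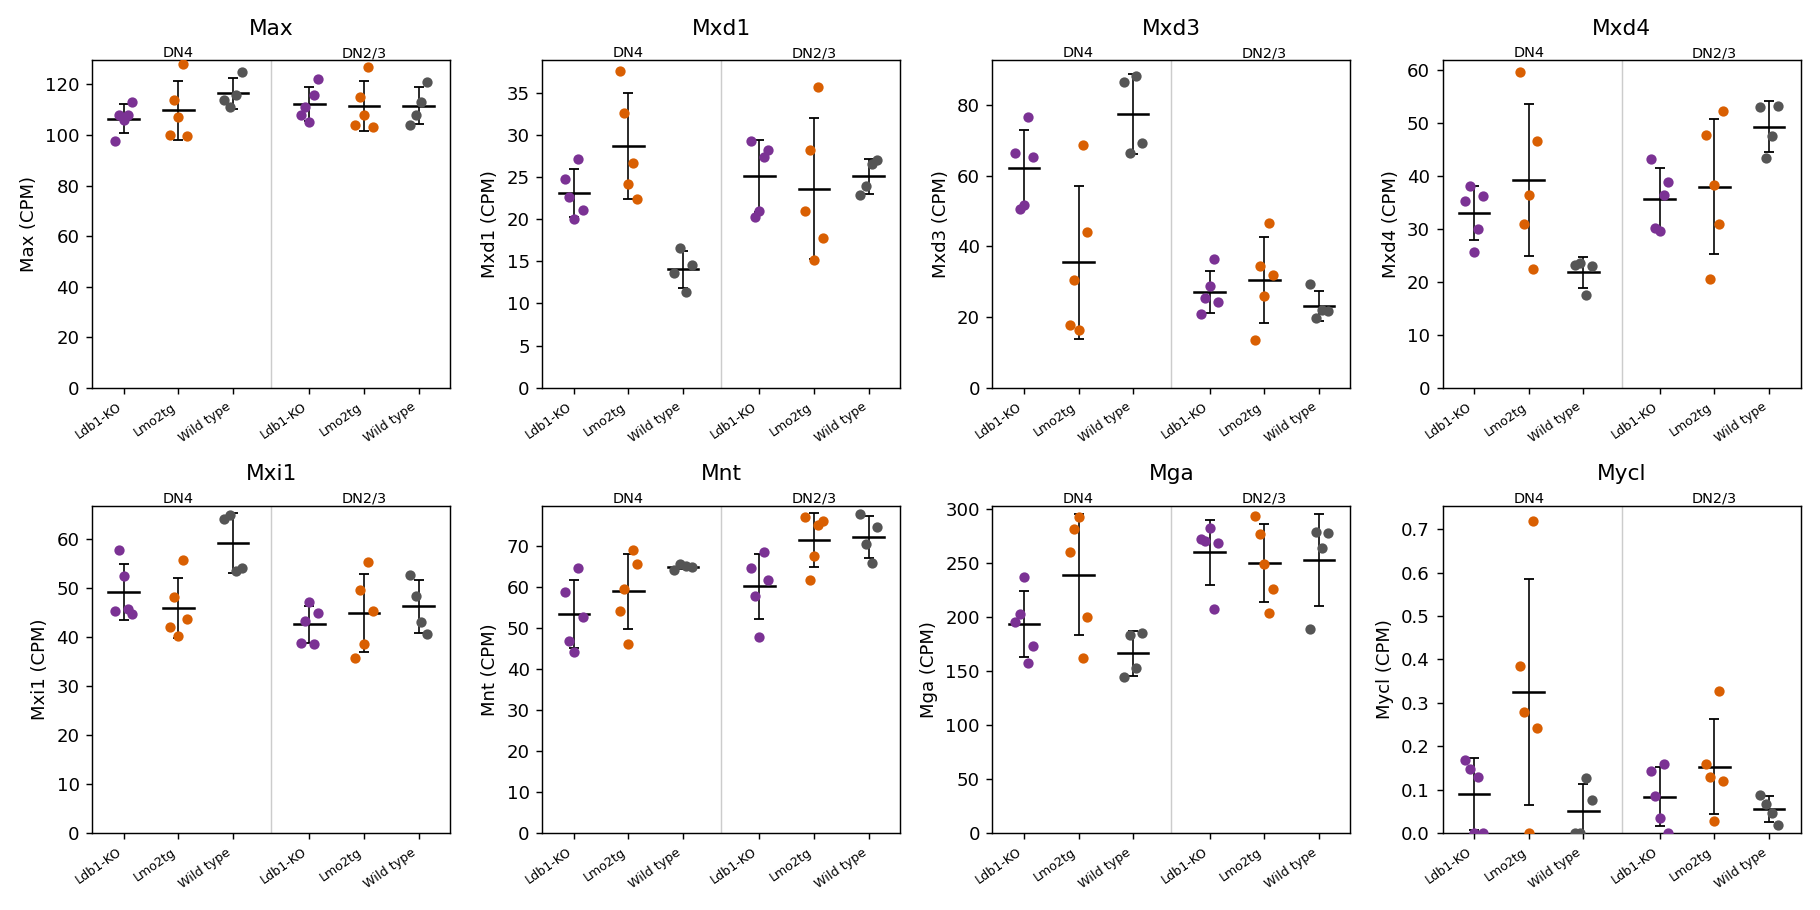
CPM of Max, Mxd1, Mxd3, Mxd4, Mxi1, Mnt, Mga and Mycl by group, with Ldb1-KO, Lmo2tg and wild type from left to right at DN4 and then at DN2/3. Points are libraries, bars the mean and error bars the SD. At DN4, Mxd1 libraries of wild type (11.3 to 16.6 CPM) lie below all transgenic ones (20 to 37.5 CPM), while for Max all groups overlap.

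Mxi1, another partner of Max that recruits Sin3, on chromosome 19 from 53310518 to 53375810, was lower in Lmo2tg than in wild type at DN4. At DN4 it had 45.3, 57.8, 52.6, 45.8 and 44.8 CPM in Ldb1-KO, 42, 48.2, 40.2, 55.7 and 43.7 CPM in Lmo2tg libraries, and 64.1, 65, 53.6 and 54.2 CPM in wild type, with overlap of each transgenic group and wild type. It fell in Lmo2tg relative to wild type (log2 -0.37, SE 0.12, adjusted p = 0.0148), and Ldb1-KO gave -0.27 (adjusted p = 0.0957, and 0.0467 in the compared groups only). It was higher at DN4 than at DN2/3 in wild type (log2 0.36, SE 0.13, adjusted p = 0.0267), a call lost with library totals only (0.134) and without wild type DN2/3 replicate 3 (0.0729) or 4 (0.0905) or wild type DN4 replicate 1 (0.0568) or 2 (0.0611). With the replicate block within genotype Mxi1 was also higher at DN4 in Ldb1-KO (log2 0.21, adjusted p = 0.0110), and its Lmo2tg effect was lower at DN4 than at DN2/3 (log2 difference -0.32, adjusted p = 0.00935, against 0.166 without the block). An exon overlap of 2.84% with Gm10197 lies on the other strand.

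Mnt, on chromosome 11 from 74830920 to 74845725, is the broadly expressed antagonist of Myc. Its means at DN4 were 53.4 ± 8.39 CPM in Ldb1-KO, 58.9 ± 9.07 in Lmo2tg and 64.9 ± 0.57 in wild type, and at DN2/3 60.2 ± 7.87, 71.5 ± 6.66 and 72.2 ± 5.12 CPM in the same order. Mnt passed in no contrast of the main model. For Ldb1-KO against wild type at DN4 it gave -0.28 (adjusted p = 0.0658), and it was called in the compared groups only (0.0498), with DESeq2 (0.0487) and without Ldb1-KO DN4 replicate 4 (0.0222). For DN4 against DN2/3 in Lmo2tg it gave -0.28 (adjusted p = 0.0931), and was called without Lmo2tg DN4 replicate 4 (0.0320) or Lmo2tg DN2/3 replicate 2 (0.0461) and, at -0.29, with the replicate block within genotype (adjusted p = 0.00533).

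Mga, on chromosome 2 from 119897228 to 119969581, carries a T-box domain beside its helix-loop-helix domain. At DN4 it had 195, 203, 237, 157 and 173 CPM in Ldb1-KO, 260, 281, 292, 162 and 200 CPM in Lmo2tg libraries, and 144, 183, 153 and 185 CPM in wild type. Lmo2tg replicate 4 lay inside the wild-type range, and the other 4 libraries were above it. Mga rose in Lmo2tg over wild type (log2 0.53, SE 0.16, adjusted p = 0.00823). Ldb1-KO against Lmo2tg gave -0.31 (SE 0.15, adjusted p = 0.180), which was called without Lmo2tg DN4 replicate 4 (log2 -0.42, adjusted p = 0.0352).

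At DN2/3, Mga had 272, 270, 282, 207 and 268 CPM in Ldb1-KO, 293, 277, 249, 204 and 226 CPM in Lmo2tg libraries, and 189, 279, 264 and 278 CPM in wild type, with overlap between all groups. It fell at DN4 relative to DN2/3 in wild type (log2 -0.60, SE 0.17, adjusted p = 0.00502). It also fell in Ldb1-KO (log2 -0.43, SE 0.15, adjusted p = 0.0331), but not without Ldb1-KO DN2/3 replicate 1, 2, 3 or 5 or Ldb1-KO DN4 replicate 1, 4 or 5 (adjusted p 0.0541 to 0.107). The Lmo2tg effect differed between stages by 0.54 (adjusted p = 0.0742). That difference was called with library totals only (0.0382), without wild type DN2/3 replicate 1 (0.0336) or Lmo2tg DN4 replicate 4 (0.0149), and with the replicate block within genotype (log2 0.51, adjusted p = 0.00177). With that block, the Ldb1-KO effect relative to Lmo2tg was lower at DN4 than at DN2/3 (log2 difference -0.35, adjusted p = 0.0422).

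A balance within the network was described, without a test. It was the summed level per kb of Myc, Mycn and Mycl over that of Mxd1, Mxd3, Mxd4 and Mxi1. Mxd3 had the highest mean of the latter genes in each group, with 32.7 CPM per kb in wild type DN4 and 9.77 in wild type DN2/3. Mnt, at 12.7 CPM per kb in Lmo2tg DN4, was left out, so the ratio does not cover all antagonists of Myc. The size of the ratio also depends on the joined exon lengths used. At DN4 the lowest, median and highest values of the ratio were 1.84, 1.95 and 2.37 in Ldb1-KO, 1.98, 2.85 and 3.37 in Lmo2tg, and 3.12, 3.68 and 4.11 in wild type. The Ldb1-KO libraries were all below the wild-type ones, while Lmo2tg overlapped both. At DN2/3 they were 3.64, 3.89 and 4.34 in Ldb1-KO, 3.4, 4.07 and 5.49 in Lmo2tg, and 4.98, 5.48 and 5.6 in wild type. Within the Myc family, Mycn made up 1.47% to 1.88% of the RNA per kb in Ldb1-KO, 1.63% to 4.56% in Lmo2tg and 0.235% to 0.457% in wild type at DN4. At DN2/3 its share was 5.74% to 9.3%, 2.81% to 4.13% and 3.93% to 5% in the same order. Myc held most of the rest of the family's RNA in each library.

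**Figure D5:**
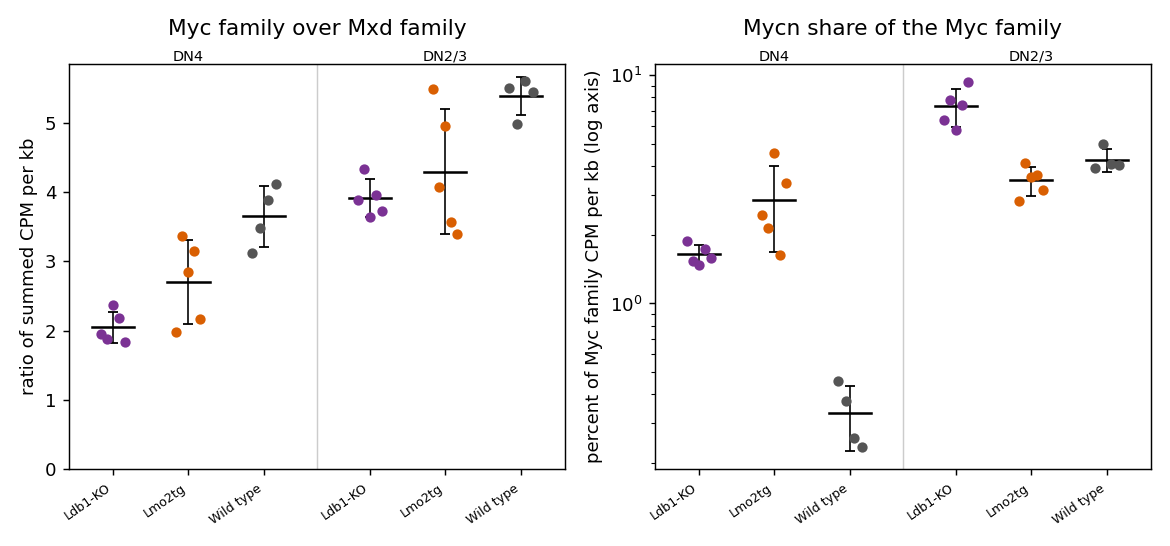
Left, the ratio of the summed Myc family to the summed Mxd family in CPM per kb; right, the share of Mycn in the Myc family in percent, on a log axis, by group with Ldb1-KO, Lmo2tg and wild type from left to right at DN4 and then at DN2/3. Points are libraries. The Mycn share of wild type DN4, 0.235% to 0.457%, lies below all other groups.

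The genes whose centred log2 CPM profile over the 28 libraries was closest to that of a member were found by the root mean square difference. For Myc, whose own profile had an SD of 0.473, these were Mettl13 (0.129), Pprc1 (0.142) and Nme6 (0.142). For Mycn, with an SD of 1.3, they were Tox3 (0.46), Bcl2l14 (0.514) and Tspan9 (0.515). For Mxd4, with an SD of 0.467, they were Rnf167 (0.181), Zscan2 (0.187) and Hmha1 (0.192). The points share libraries and depth, and no p is given.

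Of 30 genes known to be raised by Myc, most fell at DN4 in both transgenic groups. In Lmo2tg against wild type, 22 fell, led by the telomerase and pseudouridine synthase gene Dkc1 (log2 -0.68, adjusted p = 0.000314), and 1 rose, the transferrin receptor gene Tfrc (log2 0.53, adjusted p = 0.0238). The median log2 change was -0.667, beside 0.0674 over all genes, of which 23.5% were called lower and 28.9% higher. The rise of Tfrc was lost without wild type DN4 replicate 1 or 3 or Lmo2tg DN4 replicate 2 or 3. Without Lmo2tg DN4 replicate 1, 18 fell and 1 rose, beside 2886 and 3707 of 14329 genes. In the compared groups only, 13 fell and 0 rose, beside 2028 and 2919 of 13328. In Ldb1-KO against wild type 20 fell and 0 rose, with a median of -0.569 beside 0.0349 over all genes. Of all genes, 14.4% were lower and 18.2% higher in that contrast. The DNA repair enzyme gene Apex1 had 27.5 ± 1.89 CPM in Ldb1-KO and 50.2 ± 6.84 CPM in wild type (log2 -0.87, SE 0.19, adjusted p = 0.00205). Ldb1-KO against Lmo2tg at DN4 called 0 of the 30 in edgeR, with 1 at an unadjusted p below 0.05 and 1 in DESeq2. In that contrast 1 fell without Lmo2tg DN4 replicate 1 or 3 or Ldb1-KO DN4 replicate 4, and 1 rose without Lmo2tg DN4 replicate 4. Slc3a2, the heavy chain of amino acid transporters, had the smallest adjusted p there (log2 -0.45, adjusted p = 0.0552).

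At DN2/3 most genes of this list were not called in any contrast of genotype. In Lmo2tg over wild type 4 rose (Slc3a2, Bop1, Eif4e, Tfrc) and Ccnd2, cyclin D2, fell, beside 15.1% and 14.4% of all genes. The count of 4 was 2 without wild type DN2/3 replicate 1, 2 or 3 and 1 without Lmo2tg DN2/3 replicate 2 or 4. Slc3a2 had 120 ± 24.5 CPM in Ldb1-KO, 197 ± 38.4 CPM in Lmo2tg and 101 ± 10.9 CPM in wild type at that stage. It rose in Lmo2tg over wild type (log2 0.97, SE 0.17, adjusted p = 8.75e-05) and fell in Ldb1-KO relative to Lmo2tg (log2 -0.71, SE 0.16, adjusted p = 0.00205). Bop1 fell as well in that contrast, but 1 of the 2 falls was lost without Lmo2tg DN2/3 replicate 2 or 4 or Ldb1-KO DN2/3 replicate 1, 2, 3 or 5.

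Between stages, 27 of the 30 genes raised by Myc were higher at DN4 than at DN2/3 in wild type, and Ccnd2 was lower (log2 -1.63, adjusted p = 0.000232). The count of 27 was 17 without wild type DN2/3 replicate 2, beside 2557 of 14550 genes higher. Of all genes, 21.1% were higher and 24.8% lower in the main model. In Ldb1-KO, Ldha, lactate dehydrogenase, was higher and Ccnd2 lower. Ldha was no longer called without Ldb1-KO DN2/3 replicate 1, 2, 3 or 5 or Ldb1-KO DN4 replicate 4 or 5. In Lmo2tg 0 were higher in edgeR and in DESeq2, and the transcription factor gene Tfap4 was lower. The number lower was 0 without Lmo2tg DN2/3 replicate 4 or Lmo2tg DN4 replicate 3, 2 without Lmo2tg DN4 replicate 2 and 3 without Lmo2tg DN4 replicate 4. With the replicate block within genotype, 9 were higher and 2 lower in Ldb1-KO, and 2 higher and 8 lower in Lmo2tg. That block called 3238 of 14371 genes higher and 3696 lower in Ldb1-KO, and 2674 and 2895 in Lmo2tg.

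Of 12 genes known to be repressed by Myc, cell cycle inhibitors and stress genes, 7 rose and 2 fell in Lmo2tg over wild type at DN4. Their median log2 change was 1.15, beside 0.0674 over all genes, of which 28.9% were called higher and 23.5% lower. The antiproliferative gene Btg1 (log2 3.07, adjusted p = 1.16e-07) and the inhibitor gene Cdkn1c rose, while the inhibitor gene Cdkn1a and Ndrg1 fell. Only 1 fell without wild type DN4 replicate 1, 2 or 3 or Lmo2tg DN4 replicate 1, 2, 3 or 5. In Ldb1-KO against wild type at DN4, 7 rose and 2 fell, beside 18.2% and 14.4% of all genes (median 0.674, beside 0.0349 over all genes). Without wild type DN4 replicate 3 or Ldb1-KO DN4 replicate 2, 6 rose and 1 fell. In Ldb1-KO relative to Lmo2tg at DN4, Cdkn1c fell, with 1.80 ± 0.609 CPM in Ldb1-KO and 3.80 ± 0.507 CPM in Lmo2tg (log2 -1.07, SE 0.26, adjusted p = 0.00561), and 1 rose and 2 fell without Lmo2tg DN4 replicate 4. At DN2/3, 6 rose (Cdkn1b, Cdkn1c, Cdkn2b, Cdkn2c, Gadd45a, Ndrg2) and 3 fell (Cdkn1a, Ndrg1, Btg2) in Lmo2tg against wild type, a contrast in which Myc was not called. The median of the list was 0.675, beside 0.00856 over all genes, of which 15.1% were higher and 14.4% lower. In Ldb1-KO against wild type 5 rose (Cdkn1b, Cdkn2b, Gadd45a, Gadd45b, Ndrg2) and 0 fell, with a median of 0.625 beside -0.0135. There 6.98% of all genes were higher and 2.58% lower. The count of 5 was 3 without wild type DN2/3 replicate 1 or 2 or Ldb1-KO DN2/3 replicate 5, and 2 without wild type DN2/3 replicate 4. Those fits called 604, 723, 850 and 662 of all genes higher in that order, against 1003 in the main model. At that stage, Cdkn1a and Btg2 rose and Cdkn1c fell in Ldb1-KO relative to Lmo2tg. There Cdkn1a had 30.6 ± 8.40 CPM in Ldb1-KO, 2.77 ± 1.64 CPM in Lmo2tg and 58.8 ± 9.17 CPM in wild type. It fell in Lmo2tg against wild type (log2 -4.41, SE 0.42, adjusted p = 1.16e-08) and was higher in Ldb1-KO than in Lmo2tg (log2 3.47, SE 0.40, adjusted p = 6.01e-07). 

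Of the 14 proliferation genes, 11 fell and 0 rose in Lmo2tg against wild type at DN4, also without Lmo2tg DN4 replicate 1. The thymidylate synthase gene Tyms led them (log2 -1.14, adjusted p = 0.000103), while 23.5% of all genes were lower and 28.9% higher. In Ldb1-KO against wild type 0 were called in edgeR, with 2 at an unadjusted p below 0.05 and 1 in DESeq2. There 7 fell in the compared groups only, beside 2885 of 13266 genes, and 1 without Ldb1-KO DN4 replicate 4, beside 2263 of 14359. In Ldb1-KO over Lmo2tg 5 rose (Mki67, Ccna2, Rrm2, Tyms, Birc5), beside 5.85% of all genes. The count was 12 without Lmo2tg DN4 replicate 4, beside 1212 of 14360 genes higher, and 2 in the compared groups only, beside 267 of 13106. Rrm2, a subunit of ribonucleotide reductase, had 724 ± 41.4 CPM in Ldb1-KO and 387 ± 124 CPM in Lmo2tg (log2 0.90, SE 0.20, adjusted p = 0.00254).

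At DN2/3 the proliferation list had 0 genes called in Ldb1-KO against Lmo2tg in edgeR, 0 at an unadjusted p below 0.05 and 0 in DESeq2, and Pcna, the sliding clamp of DNA replication, had the smallest adjusted p (log2 -0.27, adjusted p = 0.370). Lmo2tg against wild type called Ccnb1, cyclin B1, which rose (log2 0.96, SE 0.28, adjusted p = 0.0116), and 6 rose without Lmo2tg DN2/3 replicate 1 and 4 without replicate 5. In wild type 14 of 14 were higher at DN4 than at DN2/3 (21.1% of all genes), and in Ldb1-KO 12 (12.3%). In Lmo2tg 1 was higher (8.32% of all genes), and 5 with the replicate block within genotype (2674 of 14371 genes). That 1 was lost without Lmo2tg DN2/3 replicate 1, 3 or 5 or Lmo2tg DN4 replicate 2 or 4, and 2 were higher without Lmo2tg DN2/3 replicate 2.

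Genes upstream of Myc in thymocytes, 13 of the Notch, IL-7 receptor and pre-T-cell receptor pathways and their transcription factors, moved in both directions. In Lmo2tg over wild type at DN4, 8 rose and 1 fell, Ptcra, the pre-T-cell receptor alpha chain, beside 28.9% and 23.5% of all genes. Dtx1, a Notch target, had 88.4 ± 32.9 CPM in Lmo2tg and 20.2 ± 5.54 CPM in wild type (log2 2.13, SE 0.35, adjusted p = 2.73e-05). At DN2/3, 5 rose in Lmo2tg over wild type (Rbpj, Tcf7, Lef1, Ikzf1, Gata3) and Notch3 and Ptcra fell, beside 15.1% and 14.4% of all genes. Ptcra had 96.1 ± 33.5 CPM in Ldb1-KO, 31.7 ± 8.98 CPM in Lmo2tg and 177 ± 14.7 CPM in wild type there. It fell in Lmo2tg relative to wild type (log2 -2.48, SE 0.29, adjusted p = 2.25e-07) and was higher in Ldb1-KO than in Lmo2tg (log2 1.60, SE 0.27, adjusted p = 0.000107).

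In Ldb1-KO relative to Lmo2tg, Ptcra was the upstream gene that rose at both stages. At DN4, Il7r and Gata3 fell. Il7r, the IL-7 receptor, had 30.4 ± 9.50 CPM in Ldb1-KO and 108 ± 71.5 CPM in Lmo2tg (log2 -1.82, SE 0.34, adjusted p = 0.000681). Only 1 of the 2 falls was left without Lmo2tg DN4 replicate 3 or 5 or Ldb1-KO DN4 replicate 1, 2 or 5. At DN2/3, Tcf7, Lef1 and Il7r fell, a count of 3 that was 1 without Lmo2tg DN2/3 replicate 1 or Ldb1-KO DN2/3 replicate 2 and 2 without Ldb1-KO DN2/3 replicate 1.

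Of 11 coactivators of Myc, 6 fell in Lmo2tg against wild type at DN4 and Trrap rose, beside 23.5% and 28.9% of all genes. Ruvbl2, an ATPase of chromatin remodelling complexes, had 122 ± 50.8 CPM in Lmo2tg and 228 ± 26.7 CPM in wild type (log2 -0.90, SE 0.20, adjusted p = 0.000825). The rise of Trrap was lost without wild type DN4 replicate 1, 2 or 3 or Lmo2tg DN4 replicate 1 or 5. At DN2/3, 0 were called in edgeR, 0 at an unadjusted p below 0.05 and 0 in DESeq2, and Hcfc1, a host cell factor, had the smallest adjusted p (log2 0.21, adjusted p = 0.192). In Ldb1-KO relative to Lmo2tg, Trrap fell at DN4 (log2 -0.28, SE 0.09, adjusted p = 0.0376), but not without Lmo2tg DN4 replicate 1, 2 or 5 or Ldb1-KO DN4 replicate 2, 3 or 5. Hcfc1 fell at DN2/3 (log2 -0.32, SE 0.11, adjusted p = 0.0490), but not without Lmo2tg DN2/3 replicate 2, 3, 4 or 5 or Ldb1-KO DN2/3 replicate 1, 2, 3 or 5.

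Of 14 genes of the Sin3 corepressor, through which Mxd proteins and Mnt act, Arid4a and Arid4b rose and 6 fell in Lmo2tg against wild type at DN4. There 28.9% of all genes were higher and 23.5% lower. Arid4b had 117 ± 40.1 CPM in Lmo2tg and 58.8 ± 6.11 CPM in wild type (log2 0.99, SE 0.19, adjusted p = 0.000134). At DN2/3, Suds3 rose (log2 0.25, SE 0.07, adjusted p = 0.00778), and 2 rose without Lmo2tg DN2/3 replicate 1 or 2 and 3 without replicate 5. In Ldb1-KO against Lmo2tg 0 were called at DN4 in edgeR (3 at an unadjusted p below 0.05, 0 in DESeq2), and the histone-binding gene Rbbp7 had the smallest adjusted p (log2 0.35, adjusted p = 0.0767). There 2 rose without Lmo2tg DN4 replicate 2, 1 without replicate 3, and 1 rose and 1 fell without replicate 4. At DN2/3, Sap18 and Arid4a rose and Sin3b (log2 -0.40, SE 0.11, adjusted p = 0.0157) and Suds3 fell. Neither fall was called without Lmo2tg DN2/3 replicate 3 or Ldb1-KO DN2/3 replicate 2 or 3, and neither rise without Lmo2tg DN2/3 replicate 4 or Ldb1-KO DN2/3 replicate 1 or 5.

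Of 10 partners of Mga in the variant Polycomb complex, 4 rose (Rnf2, Cbx3, Rybp, Yaf2) and 3 fell (Pcgf6, Tfdp1, Cbx1) in Lmo2tg against wild type at DN4, beside 28.9% of all genes higher and 23.5% lower. Cbx1, which encodes a heterochromatin protein, had 138 ± 4.82 CPM in Ldb1-KO, 109 ± 8.37 CPM in Lmo2tg and 165 ± 9.09 CPM in wild type. It fell in Lmo2tg against wild type (log2 -0.60, SE 0.07, adjusted p = 3.4e-07) and was higher in Ldb1-KO than in Lmo2tg (log2 0.34, SE 0.07, adjusted p = 0.00109). Yaf2 fell in the same contrast of Ldb1-KO with Lmo2tg (log2 -0.53, adjusted p = 0.0479), but not without Lmo2tg DN4 replicate 2 or Ldb1-KO DN4 replicate 1, 2, 3 or 5. At DN2/3, 5 of the 10 rose in Lmo2tg over wild type (L3mbtl2, Rnf2, Cbx3, Rybp, Yaf2), beside 15.1% of all genes. Yaf2 had 14.9 ± 2.58 CPM in Lmo2tg and 6.14 ± 0.912 CPM in wild type (log2 1.28, SE 0.20, adjusted p = 1.46e-05). L3mbtl2 was the partner called in Ldb1-KO against Lmo2tg at DN2/3, where it fell (log2 -0.62, SE 0.16, adjusted p = 0.00612).

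Of 16 genes that act on the stability or activity of Myc protein, 15 were tested, and 3 rose (Pim1, Gsk3b, Ppp2r5a) and 7 fell in Lmo2tg against wild type at DN4, where 28.9% of all genes were higher and 23.5% lower. The kinase gene Pim1 had 108 ± 24.5 CPM in Lmo2tg and 46.8 ± 6.92 CPM in wild type (log2 1.21, SE 0.15, adjusted p = 7.29e-07). At DN2/3, Pim1 and Pim2 rose and Fbxw7, the ubiquitin ligase subunit that marks Myc for destruction, fell (log2 -0.40, SE 0.12, adjusted p = 0.0126). Pim2 had the smallest adjusted p (log2 0.74, SE 0.21, adjusted p = 0.00872), and 1 of the 2 rises was lost without any of the 4 wild type DN2/3 libraries or Lmo2tg DN2/3 replicate 3, 4 or 5. Fbxw7 had 48.5 ± 4.69 CPM in Ldb1-KO and 34 ± 4.28 CPM in Lmo2tg at DN2/3 and was the gene called in that contrast (log2 0.51, SE 0.11, adjusted p = 0.00199).

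In Ldb1-KO against Lmo2tg at DN4, 0 genes of Myc protein turnover were called in edgeR, with 2 at an unadjusted p below 0.05 and 0 in DESeq2. The number that rose was 1 without Lmo2tg DN4 replicate 3 or Ldb1-KO DN4 replicate 4 and 2 without Lmo2tg DN4 replicate 4. The kinase gene Aurka had the smallest adjusted p there (log2 0.60, adjusted p = 0.0727). Protein levels were not measured. Of the Mlx branch, a parallel set of helix-loop-helix factors, Mlx and Mlxip were tested, and neither was called in a contrast of genotype (Mlxip had adjusted p from 0.0815 to 0.593 in the contrasts of Lmo2tg with wild type and of Ldb1-KO with Lmo2tg), though 1 fell in Lmo2tg relative to wild type at DN2/3 without Lmo2tg DN2/3 replicate 1. Mlxip was lower at DN4 than at DN2/3 in Ldb1-KO (log2 -0.55, adjusted p = 0.00396) and in wild type (log2 -0.84, adjusted p = 0.00013).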

How the data were processed

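Paired-end reads of 101 bases from TruSeq RNA V2 libraries were sequenced on a HiSeq2500, per the labels. The submitters' processing notes name mm10, STAR 2.5.2a and featureCounts 1.4.6-p3. No source used here gives the annotation or the strand setting. The authors deposited whole-number counts per gene symbol. Columns and samples were matched on library names from the labels, with 0 columns left over. Of counts of 1 to 20, 77.5% were even, against 53.5% of larger ones, as when both mates of a pair are counted, so low counts hold fewer fragments than they show.

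Counts were fitted with edgeR 4.0.16 in R 4.3.3: 1 quasi-likelihood model of 28 libraries in 6 groups, TMM scaling, the filterByExpr filter by group and robust dispersion. Each of 12 contrasts had a two-sided F-test with Benjamini-Hochberg adjustment over the 14371 genes tested. Levels are CPM on TMM-scaled totals, and figures use Python 3.11.15. Total counts of 28.1 to 106.9 M set the precision. Intervals and p-values rest on 1 estimate of the spread between libraries per gene, pooled over all 6 groups. No library was a copy of another (chi-square over its degrees of freedom at least 27.1 between replicates). That value ran from 152 to 489 in Lmo2tg DN4 and from 34 to 62.1 in wild type DN4. The pooled spread is thus not that of the groups compared, which only the fit of the compared groups uses.

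The members and gene lists were chosen with earlier results of these data known. The text names all members and, per list, the gene with the smallest adjusted p in each contrast of Lmo2tg with wild type and of Ldb1-KO with Lmo2tg, and further list genes, such as those behind a count of 5 or fewer, were named after their values were seen. Markers and lists were read as sums, counts and medians, without a test. Where a list count of the main model stands alone, the share of all genes called is that given with the members. Alternatives were DESeq2 1.42.0, RLE size factors, library totals only, no count filter, the compared groups only, a replicate block, halved counts and each library left out.

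Same-numbered samples of the 2 stages deviated together within each genotype (r of 0.289 to 0.531 in Ldb1-KO, 0.513 to 0.65 in Lmo2tg and 0.153 to 0.332 in wild type), so the numbers were taken to pair the stages. A replicate block within genotype, added after seeing the data, is given beside stage results where it changes a call. Between genotypes not every correlation was over 0.1, and the labels do not say that a number marks a shared day or animal, so no pairing was assumed. Libraries of the 4 transgenic groups were named in the order of the numbers, and numbers 4 and 5 were shallower (28.1 to 44.88 M). The method was tried on simulated data in which a gene had the same spread in all groups. That trial does not cover the wider spread of Lmo2tg DN4.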

Additional observations from a re-analysis of the deposited data

Results flagged for a closer look

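The Lmo2tg effect, relative to wild type, differed between DN4 and DN2/3 by its own edgeR test for 5 members. The log2 difference was -0.75 for Myc, 2.56 for Mycn, 1.12 for Mxd1, -1.52 for Mxd3 and 1.22 for Mxd4. The calls for Myc and Mxd3 were lost in the compared groups only. That for Myc was also lost with library totals only and when some single libraries were left out. The Ldb1-KO effect, relative to Lmo2tg, differed between the stages for Mycn, by -1.54. These contrasts share the Lmo2tg libraries.

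Of 54 group values of members, with Mycl left out, 3 held a library far from the others. They were Mga in Ldb1-KO DN2/3 replicate 4 (207 CPM), Mga in wild type DN2/3 replicate 1 (189 CPM) and Mxd4 in wild type DN4 replicate 3 (17.5 CPM). By chance about 1 in 20 groups is marked in this way.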

How the results depend on the processing

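The number of members called moved by over 1.5 times in these cases. For Ldb1-KO against Lmo2tg at DN4 it was 2 with library totals only, the replicate block or DESeq2 and 0 in the compared groups only. At DN2/3 it was 2 with the replicate block. For Ldb1-KO against wild type at DN2/3 it was 1 with library totals only, 3 with the replicate block and 2 in the compared groups only. For DN4 against DN2/3 in Lmo2tg it was 3 with either replicate block and 0 in the compared groups only. The count of members whose effect differed between stages was 3 for Lmo2tg against wild type in the compared groups only, 3 for Ldb1-KO against Lmo2tg with the replicate block within genotype, and for Ldb1-KO against wild type 4 in the compared groups only, 1 with DESeq2 and 3 with the replicate block within genotype.

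With each library left out, the counts ran from 7 to 8 and 0 to 1 for Lmo2tg against wild type at DN4 and DN2/3, 0 to 3 for Ldb1-KO against Lmo2tg at DN4, 3 to 5 for Ldb1-KO against wild type at DN4, 2 to 3, 1 to 3 and 5 to 6 for the stage in Ldb1-KO, Lmo2tg and wild type, and 4 to 6 and 1 to 2 for the stage difference of Lmo2tg against wild type and of Ldb1-KO against Lmo2tg. Of 2280 member values compared, none that was called changed sign, and 88 uncalled ones did. The replicate block within genotype changed no other call of a stage contrast than those given with the results. Same-numbered samples of different genotypes correlated between -0.179 and 0.338 in their deviations, and in no contrast of genotypes was every sample closest to its own number. There the replicate block called Mxd3 (adjusted p = 0.0246) in Ldb1-KO against Lmo2tg at DN4, Mnt in Ldb1-KO against wild type at DN4 (0.00872) and Myc (0.0400), Mxd4 (0.0481) and Mnt (0.0289) at DN2/3, Mnt in Ldb1-KO against Lmo2tg at DN2/3 (0.0322) and the stage difference of Mga in Lmo2tg against wild type (0.0492), and lost Mycl in Lmo2tg against wild type at DN4 (0.0568).

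Over all genes, counts moved by over 1.5 times as follows. In the compared groups only they were 4947 (main model 7532) for Lmo2tg against wild type at DN4, 681 (2092) for Ldb1-KO against Lmo2tg at DN4, 3037 (1374) for Ldb1-KO against wild type at DN2/3, 321 (2208) for the stage in Lmo2tg, and 2146 (3684), 85 (195) and 1737 (31) for the stage differences of Lmo2tg from wild type, of Ldb1-KO from Lmo2tg and of Ldb1-KO from wild type. The replicate block gave 2449 (1374) for Ldb1-KO against wild type at DN2/3 and 134 (31) for its stage difference. DESeq2 gave 394 (195) and 280 (31) for the 2 Ldb1-KO stage differences. The replicate block within genotype gave 6934 (4039) and 5569 (2208) for the stage in Ldb1-KO and Lmo2tg and 7106 (3684), 1933 (195) and 2811 (31) for the stage differences. With library totals only, the median of all genes shifted by -0.129 for the stage in wild type, where 2219 genes were higher and 4322 lower (main model 3035 and 3571), and by 0.123 for the stage difference of Lmo2tg against wild type, 2631 and 1034 (2106 and 1578). Lmo2tg against wild type at DN2/3 had 1755 and 2534 (2175 and 2067). With 1 library left out, Ldb1-KO against wild type at DN2/3 had 764 without wild type DN2/3 replicate 1, 877 without 3, 880 without 4 and 863 without Ldb1-KO DN2/3 replicate 3. At DN4 it had 2855 (4680) without wild type DN4 replicate 3. Without Lmo2tg DN4 replicate 4 the stage in Lmo2tg had 3450 and the stage difference of Ldb1-KO from Lmo2tg 624. That of Lmo2tg from wild type had 2412 without wild type DN2/3 replicate 2. That of Ldb1-KO from wild type had 47 without Ldb1-KO DN4 replicate 4 and 6 to 20 without replicate 1, 3 or 4 of wild type DN4, 2 or 3 of wild type DN2/3, 1 or 5 of Ldb1-KO DN4 or 1, 3, 4 or 5 of Ldb1-KO DN2/3. Halved counts changed no call of a member tested, and Mycl then fell to the filter. Its low counts are what depth limits most here. The causes were not tested.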
